A study of Mus musculus with 4 samples.

Results

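Hox genes encode homeodomain transcription factors that give cells a position along the head-to-tail axis of the embryo, and cultured cells of many organs go on expressing the Hox genes of the place they came from. They lie in 4 chromosomal clusters, HoxA on chromosome 6, HoxB on 11, HoxC on 15 and HoxD on 2, in the same order as their domains in the body. Genes with the same number in different clusters are paralogues, and low numbers act near the head and high numbers near the tail. The bladder forms from the urogenital sinus at the posterior end of the gut, a region where genes of the highest numbers are active in the mouse embryo. The members described here are the transcript clusters (groups of probes that the array reads as 1 gene) that carry a single gene symbol of the form Hox, a cluster letter and a number. There are 32 such genes among 14996 clusters with 1 symbol and 23332 clusters in all, and each is measured by 1 cluster. Hoxa3 and Hoxd4 share their clusters with another symbol and were not counted, and any other Hox gene was not analysed here.

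The cells were colonies of bladder epithelial stem cells from newborn mice of strain C57BL/6j. They were cultured over a feeder layer of the mouse fibroblast line 3T3 and then picked for total RNA. The 2 KO-BL samples came from p63 knockout pups and the 2 WT-BL samples from wild-type pups, with 1 Affymetrix mouse exon array for each. The knockout allele, the sex of the pups, the number of colonies in a sample and whether samples came from separate animals are not stated in the labels, so the tests measure the spread between these samples, which may be technical. p63, encoded by Trp63, is a transcription factor of the basal cells of stratified epithelia, and the comparison asks which transcripts differ in bladder colonies without it.

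Trp63 was at log2 intensities of 4.60 and 4.74 on the knockout arrays and 8.98 and 8.99 on the wild-type arrays (limma adjusted p = 0.015, and 0.075 to 0.34 when 1 array is left out), low in the samples labelled knockout. The general epithelial markers Krt18, Krt19 and Epcam were between 8.55 and 11.32 on all 4 arrays. The urothelial markers Upk1a, Upk1b, Upk2 and Upk3a were between 8.70 and 12.24 in the wild type and between 3.68 and 5.54 in the knockout. Olfactory receptor genes give a guide to silent genes: the 95th percentile of their 719 clusters over all arrays was 5.08. That level was chosen with the data known and lies near the median of each array (5.08 to 5.13), so a gene below it is not thereby shown to be silent.

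Of the 32 Hox genes, 0 passed the test, which called a cluster when its limma p, adjusted by Benjamini-Hochberg over the whole array, was under 0.05. Of all clusters 0.527% (123) passed, 0.141% higher and 0.386% lower in the knockout, and 0 passed in each of the 4 fits on 3 arrays. At an unadjusted limma p under 0.05, 6 of the 32 Hox genes (18.8%) differed, 2 of them higher and 4 lower in the knockout, against 22.3% of all clusters (14.6% higher and 7.7% lower). That Hox count was 10 without the first knockout array, 11 without the second and 2 without the first wild-type array, and the share of all clusters in those fits moved too, to 28.2%, 26.0% and 9.1%. The 2 groups did not overlap for 19 Hox genes (59.4%), 12 higher and 7 lower, against 57.1% of all clusters (36.2% higher and 20.9% lower). Both shares of the Hox genes are close to the background, and so was the median Hox difference, 0.21 beside 0.12 over all clusters. A difference of more than 1 on the log2 scale was seen in 2 Hox genes, Hoxa9 and Hoxa11, both lower in the knockout. Among all clusters 11.5% differed by more than 1 in either direction and 3.93% were lower by that much.

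Hox signals were modest in these colonies. Values ran from 2.85 to 6.74 over the 32 genes and 4 arrays. Only 8 genes were above the silent-gene guide of 5.08 on all 4 arrays, and 10 were at or below it on all 4. The mean was above the guide for 11 genes in the knockout and for 15 in the wild type. Because probes differ in affinity, the level of one gene is not set against that of another here. With 2 arrays a group, the half-width of the 95% interval of a Hox difference ran from 0.44 to 1.38 with a median of 0.66, and the smallest difference that passed the test in any cluster was 1.89. All Hox differences were smaller than that, and Hoxa11, whose difference exceeded every half-width, was still not called.

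**Figure D1:**
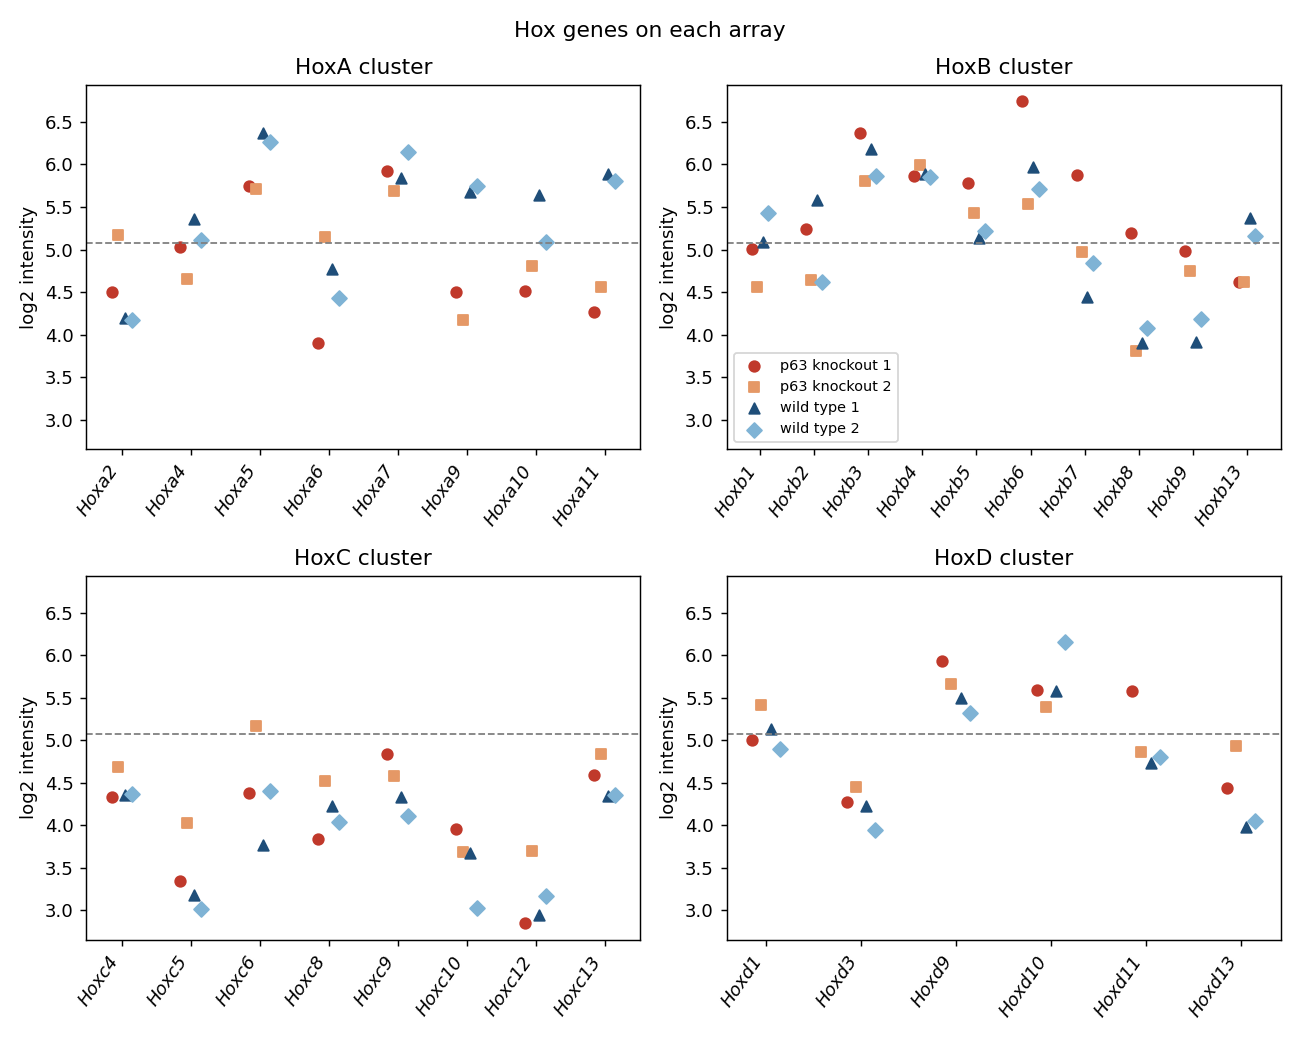
Log2 intensity (y axis) of the 32 Hox genes on the 4 arrays, by cluster, with the 95th percentile of olfactory receptor clusters as a dashed line at 5.08. Hoxa9, Hoxa10 and Hoxa11 are lower on both knockout arrays than on both wild-type arrays, and all HoxC values but 1 lie below the line.

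The HoxA genes of the posterior groups that were analysed, Hoxa9, Hoxa10 and Hoxa11, stood lowest in the knockout relative to the wild type. Hoxa11, which in the mouse patterns the forearm, the kidney and the uterus, was at 4.26 and 4.56 in the knockout and at 5.89 and 5.81 in the wild type. The groups were separate, and the replicates of each lay within 0.29 of each other. The log2 difference was -1.44 with a standard error of 0.19 and a 95% interval from -1.96 to -0.92 (2.71-fold, limma adjusted p = 0.076). It passed the test when clusters whose mean over the 4 arrays was under the 25th percentile, 3.94, were left out (limma adjusted p = 0.048), a level below both of its group means. Hoxa9, a factor of blood progenitors and of lumbar patterning, was at 4.50 and 4.17 in the knockout and at 5.67 and 5.75 in the wild type. The groups were again separate. The difference was -1.38 with a standard error of 0.20 and an interval from -1.91 to -0.84 (2.60-fold, limma adjusted p = 0.081). Hoxa10, which lies between these genes and acts in the uterus and the lumbar spine, was at 4.52 and 4.81 in the knockout and at 5.64 and 5.09 in the wild type. Its groups did not overlap, and its difference was -0.70 with an interval from -1.43 to 0.02. For these 3 neighbours both knockout values lay below the silent-gene guide of 5.08 and both wild-type values above it.

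Promoter sequences are shown for Hoxa9 and Hoxa11, which had the largest differences, and for Hoxd13, a posterior gene whose difference had the opposite sign. They run 250 bases before to 50 after the start that RefSeq gives on build GRCm38.p6, 5′ to 3′ on the gene's strand, and CpG dinucleotides are in capitals.
Hoxa9 (chr6:52227321-52227620, minus strand): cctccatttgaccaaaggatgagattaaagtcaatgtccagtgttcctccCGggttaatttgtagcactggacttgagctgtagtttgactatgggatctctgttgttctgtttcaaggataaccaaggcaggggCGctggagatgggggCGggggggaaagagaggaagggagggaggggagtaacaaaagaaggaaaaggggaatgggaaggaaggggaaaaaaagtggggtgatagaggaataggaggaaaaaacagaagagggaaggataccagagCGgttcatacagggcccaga
Hoxa11 (chr6:52245761-52246060, minus strand): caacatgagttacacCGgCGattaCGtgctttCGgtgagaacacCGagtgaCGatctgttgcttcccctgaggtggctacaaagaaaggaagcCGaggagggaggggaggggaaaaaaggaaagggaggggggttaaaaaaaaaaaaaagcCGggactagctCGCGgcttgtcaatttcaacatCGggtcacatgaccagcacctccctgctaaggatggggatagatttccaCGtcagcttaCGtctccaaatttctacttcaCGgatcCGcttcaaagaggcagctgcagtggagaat
Hoxd13 (chr2:74667975-74668274, plus strand): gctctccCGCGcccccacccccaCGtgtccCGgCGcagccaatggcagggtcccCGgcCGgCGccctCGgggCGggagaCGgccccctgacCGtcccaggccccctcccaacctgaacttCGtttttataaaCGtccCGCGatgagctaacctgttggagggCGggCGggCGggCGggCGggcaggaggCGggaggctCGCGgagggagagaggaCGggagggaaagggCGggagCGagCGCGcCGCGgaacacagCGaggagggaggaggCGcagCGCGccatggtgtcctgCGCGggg

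The Hoxa9 window held 4 CpG, the Hoxa11 window 15 and the Hoxd13 window 37. The median was 15 over 19 windows of 17 Hox genes that the table lists and 7 over all 32851 windows. Motifs were searched on both strands. A pair of the p53-family core CATG with 6 bases between the copies, the kind of site that p63 binds, was in 0 of the 19 Hox windows and in 0.712% of all windows. A direct repeat of AGGTCA with 5 bases between, bound by retinoic acid receptors, was likewise in 0 of 19, and in 0.00913% of all windows. Motifs this rare over all windows are seldom met in 19, so neither 0 sets the Hox windows apart. The TATA box TATAAA was in 3 of 19, those of Hoxa10, Hoxb8 and Hoxd13, and in 13.6% of all windows. The Cdx and posterior Hox motif TTTATNG, which can overlap a TATA box, was in the Hoxb8 window, against 10.9% of all windows. The Pbx and Hox pair motif TGATTNAT was in 2 of 19, those of Hoxa2 and Hoxd11, and in 3.22% of all windows. The Hoxa9 and Hoxa11 windows held none of these motifs, which says only that these letters are not in these windows.

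In the central part of HoxA the differences were smaller and had the same sign. Hoxa5, which in the mouse is needed for lung and trachea development, was at 5.75 and 5.71 in the knockout and at 6.37 and 6.27 in the wild type. The groups were separate, and the difference was -0.59 with an interval from -1.03 to -0.15 (limma adjusted p = 0.17). Hoxa4 was at 5.03 and 4.66 against 5.35 and 5.11, separate by a small margin. Hoxa7, a gene of thoracic vertebrae, overlapped at 5.92 and 5.69 against 5.85 and 6.15. Hoxa6 overlapped too, and its knockout arrays lay far apart at 3.91 and 5.15. Hoxa2, which specifies the second pharyngeal arch, was the HoxA gene with a positive difference (0.65), at 4.50 and 5.17 against 4.20 and 4.18. Over the 8 HoxA genes, 7 differences were negative and the median was -0.49, beside 0.12 over all clusters. Of all clusters, 60.3% had a positive difference. After quantile or cyclic loess normalization, which brought the median of all clusters to 0.0029 and -9.1e-05, 7 of 8 HoxA differences were still negative. Without the first knockout array, or without the first wild-type array, 6 of 8 were.

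**Figure D2:**
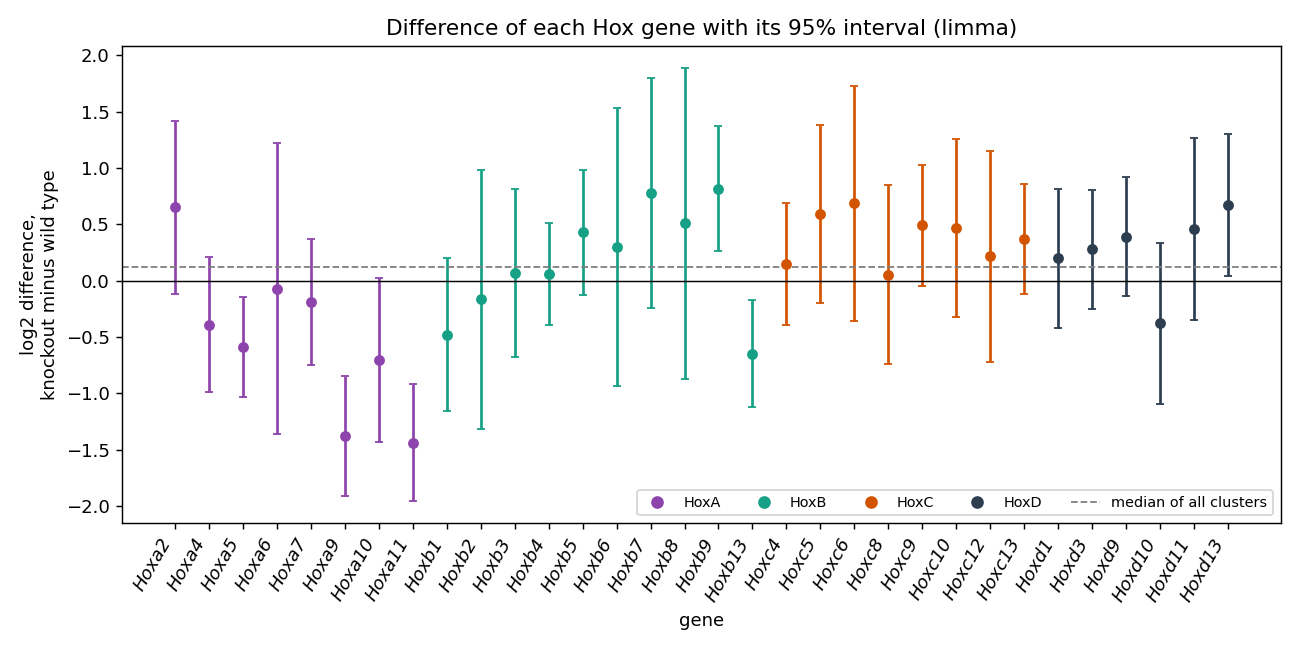
Log2 difference, knockout minus wild type (y axis), for each of the 32 Hox genes, with 95% intervals from limma and the median of all clusters as a dashed line at 0.12. The intervals of Hoxa5, Hoxa9, Hoxa11 and Hoxb13 lie below 0 and those of Hoxb9 and Hoxd13 above it.

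In HoxB the posterior end differed in sign between its measured genes. Hoxb9, a gene of the rib cage and, with its paralogues, of the mammary gland, was at 4.99 and 4.74 in the knockout and at 3.91 and 4.18 in the wild type. The groups were separate, with all values below the guide of 5.08, and the difference was 0.82 with an interval from 0.27 to 1.37 (limma adjusted p = 0.15). Hoxb13, a gene of the tail and of the prostate, another derivative of the urogenital sinus, was at 4.62 and 4.62 in the knockout and at 5.37 and 5.16 in the wild type. Its groups were separate in the other direction, with a difference of -0.65 and an interval from -1.12 to -0.17 (limma adjusted p = 0.16).

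Several of the other HoxB genes lay apart between the knockout arrays, Hoxb8, Hoxb6 and Hoxb7 the most. Hoxb6 was at 6.74 and 5.54 in the knockout and at 5.97 and 5.71 in the wild type, so the knockout arrays lay on either side of the wild type. Without the first of them its difference was -0.30 in place of 0.30. Hoxb7, whose promoter is widely used to mark the ureteric bud, was at 5.87 and 4.97 against 4.45 and 4.84, with no overlap. Hoxb8, a gene of myeloid progenitors and microglia, was at 5.19 and 3.81 against 3.90 and 4.08, and only the first knockout array stood apart. Hoxb3, of the hindbrain and throat, was at 6.37 and 5.81 against 6.18 and 5.86, and Hoxb4, of blood stem cells, at 5.86 and 5.99 against 5.89 and 5.85. Both overlapped, with differences of 0.07 and 0.06. Hoxb5, of enteric neural crest, was at 5.79 and 5.43 against 5.13 and 5.22, with no overlap. Hoxb1 and Hoxb2, both hindbrain genes, had differences of -0.48 and -0.16. Hoxb1 did not overlap, at 4.78 ± 0.31 in the knockout against 5.26 ± 0.24 (mean ± SD, n = 2), whereas Hoxb2 ranged from 4.62 to 5.59 in the wild type alone. Over the 10 HoxB genes the median difference was 0.18, and it was -0.20 without the first knockout array.

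HoxC gave low values. Of the 32 values over 8 genes and 4 arrays, Hoxc6 on the second knockout array, at 5.17, was the only one above the guide of 5.08. Beside 60.3% of all clusters, all 8 HoxC differences were positive, between 0.05 and 0.69, with a median of 0.42. That count depends on the scaling, since 5 of 8 were positive after quantile or cyclic loess normalization, with medians of 0.19 and 0.17. It was also 5 of 8, with a median of 0.25, without the second knockout array. Hoxc13, which drives hair and nail keratin genes, was at 4.60 and 4.84 in the knockout and at 4.35 and 4.35 in the wild type (difference 0.37, interval from -0.12 to 0.86, limma adjusted p = 0.31). Hoxc9, a gene of thoracic motor neurons, was at 4.84 and 4.58 against 4.33 and 4.11 (0.49, interval from -0.05 to 1.03, limma adjusted p = 0.25). Neither overlapped between the groups. Hoxc5, at 3.35 and 4.03 against 3.18 and 3.01, and Hoxc10, a lumbar motor neuron gene, at 3.96 and 3.69 against 3.68 and 3.03, did not overlap either, Hoxc10 by a narrow margin. The other 4 overlapped: Hoxc4, Hoxc6, Hoxc8 and Hoxc12 had differences of 0.15, 0.69, 0.05 and 0.22.

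In HoxD, 5 of 6 differences were positive, beside 60.3% of all clusters, with a median of 0.33. The count was the same after quantile or cyclic loess normalization, and 4 of 6 without the second knockout array. Hoxd13, which patterns digits and the genital and urinary outlets, was at 4.44 and 4.93 in the knockout and at 3.98 and 4.05 in the wild type. The groups were separate with every value below the guide of 5.08, and the difference was 0.67 with an interval from 0.04 to 1.30 (limma adjusted p = 0.21). Hoxd9, of the lumbar region and limbs, was at 5.93 and 5.66 against 5.49 and 5.32 (0.39, limma adjusted p = 0.32). It was above the guide on every array, and its groups did not overlap. Hoxd10, of hindlimb motor neurons, was the HoxD gene with a negative difference, -0.38, at 5.59 and 5.39 against 5.58 and 6.15, and its groups overlapped. Hoxd11, the paralogue that shares the forearm and kidney roles of Hoxa11, was at 5.58 and 4.86 against 4.73 and 4.80. Its groups did not overlap, but only its first knockout array stood clearly apart. Of the anterior pair, Hoxd1, of pain-sensing neurons, overlapped with a difference of 0.20, and Hoxd3, of the upper neck vertebrae, was at 4.27 and 4.45 against 4.22 and 3.95.

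Set side by side, paralogues with one number differed in sign, except in groups 3 and 8. In those groups all measured genes had positive differences, and group 12 was measured by 1 gene. Not every sign held when the processing changed or an array was left out. Hoxb3 of group 3 ran from -0.21 to 0.35. In group 8, Hoxb8 ran from -0.19 to 1.20 and Hoxc8 from -0.29 to 0.39. The sign also changed for Hoxd1, Hoxb2, Hoxb4, Hoxc4, Hoxa6, Hoxb6 and Hoxc12, so the pattern in groups 1, 2, 3, 4, 6, 8 and 12 is not settled. Group 9 is measured in all 4 clusters, and its differences were -1.38 for Hoxa9, 0.82 for Hoxb9, 0.49 for Hoxc9 and 0.39 for Hoxd9. Whether these differences differ from each other was not tested. In group 11 the differences were -1.44 for Hoxa11 and 0.46 for Hoxd11. In group 13 they were -0.65 for Hoxb13, 0.37 for Hoxc13 and 0.67 for Hoxd13. By region, the median was 0.13 over 6 anterior genes (groups 1 to 3), 0.15 over 13 central genes (4 to 8) and 0.37 over 13 posterior genes (9 to 13). Without 1 array these medians ran from -0.0043 to 0.31, from -0.0066 to 0.25 and from 0.24 to 0.36, and the central one was at its lowest without the second knockout array. The posterior median fell to 0.14 after quantile and 0.12 after cyclic loess normalization, and was -0.38 over the 3 posterior genes left without clusters under the median of mean level.

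**Figure D3:**
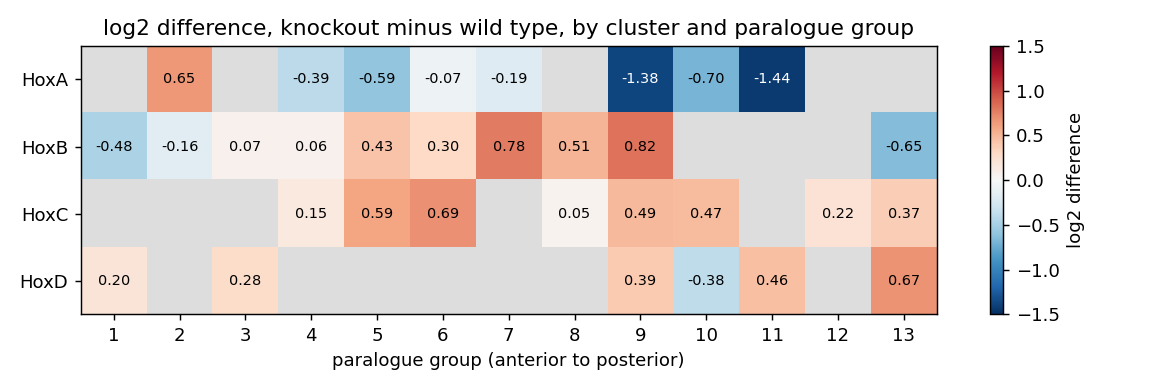
Log2 difference, knockout minus wild type (colour and number), by cluster (rows) and paralogue group (columns); grey cells hold no gene analysed here. In column 9 the HoxA cell is at -1.38, and the other 3 are between 0.39 and 0.82.

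Replicates were closer together in the wild type than in the knockout. The median absolute difference between arrays of a group over the Hox genes was 0.37 for the knockout and 0.22 for the wild type, beside 0.31 and 0.18 over all clusters. The direction differed between clusters. Of 10 HoxB genes, 9 were higher on the first knockout array than on the second, by a median of 0.50 over the cluster, and of 8 HoxC genes 2 were, with a median of -0.52. Over all clusters the share higher on the first knockout array was 49.5%. Fibroblast and feeder markers moved between the same arrays, with 1 of 12 higher on the first knockout array and a median of -0.48. Their part in the HoxB and HoxC differences was not tested.

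**Figure D4:**
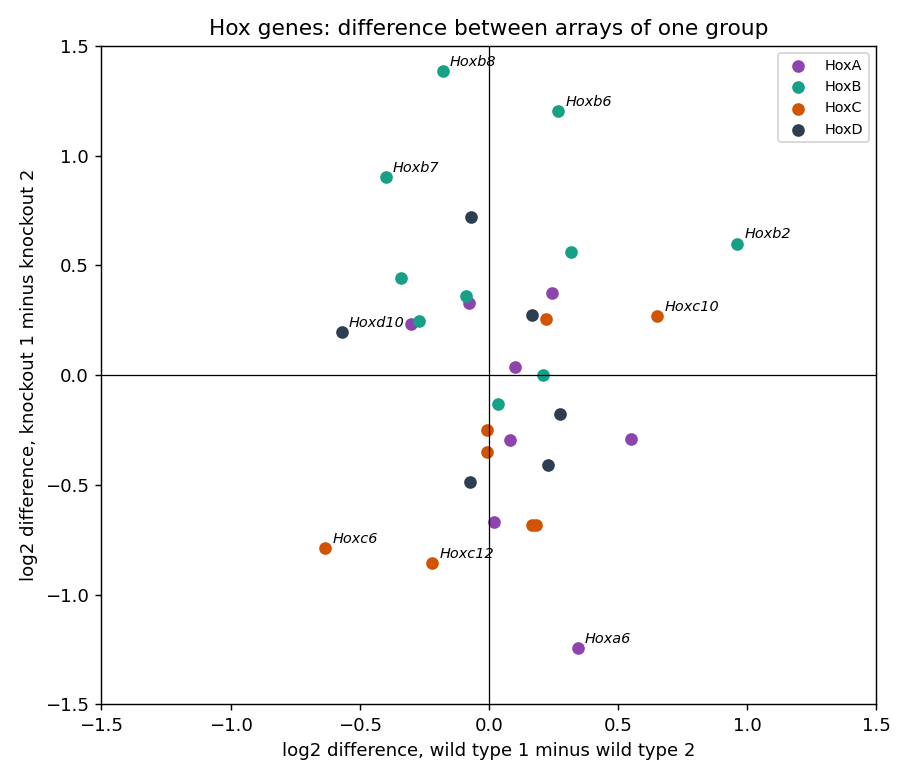
Log2 difference between the 2 arrays of a group for each Hox gene, wild type on the x axis and knockout on the y axis, with genes far from 0 named. HoxB genes lie mostly above 0 on the y axis, up to Hoxb8 at 1.39, and HoxC genes mostly below.

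Other cell types in picked colonies can carry Hox transcripts too, and in bulk RNA fewer cells of a type and less RNA per cell cannot be told apart. Summed over 12 fibroblast and feeder markers, the linear intensity was 3219 and 4598 in the knockout and 4654 and 3681 in the wild type, which overlap, and 0 of 12 passed the test. Its brightest members were Dcn, Vim and Thy1. Dcn, Lum and Col3a1 were lower in the knockout without overlap, with differences of -1.45, -2.33 and -0.63, and Vim was higher without overlap (0.93). The sum over 5 endothelial markers, led by Pecam1, Emcn and Cdh5, was 91 and 82 in the knockout and 355 and 174 in the wild type, with 0 of 5 passing. Those 3 were lower in the knockout without overlap, whereas Kdr differed by 0.22 with no overlap and Tie1 by 0.07 with overlap. All 5 endothelial markers were higher on the first wild-type array than on the second, by a median of 0.87. Hoxa11 was at 5.89 and 5.81 and Hoxa9 at 5.67 and 5.75 on those arrays. Whether the endothelial and HoxA values move together was not tested. The sum over 5 smooth muscle markers, led by Acta2, Tagln and Cnn1, was 328 and 399 against 271 and 153, and over 4 leukocyte markers, led by Cd68, Laptm5 and Tyrobp, 447 and 332 against 263 and 208, both higher in the knockout with 0 passing in either list. Tyrobp went the other way, at 4.31 and 3.75 against 4.86 and 4.56, and Myh11 of smooth muscle differed by -0.24 with overlap. Ptprc, the defining leukocyte marker, was at or below 3.73 on every array. The sum of the 4 urothelial markers was 146 and 128 against 8133 and 9400, and all 4 passed as lower. The sum of Krt5, Krt14 and Trp63, of basal cells, was 114 and 98 against 2583 and 2972, and all 3 passed as lower. The sum of 4 general epithelial markers was 3109 and 2678 against 4842 and 4768, with 0 passing. Krt18, Krt19 and Cdh1 were lower in the knockout without overlap. Epcam was higher without overlap, at 8.92 and 8.77 against 8.55 and 8.56. The epithelial, urothelial, basal and endothelial sums were thus lower in the knockout, as the posterior HoxA genes were. The smooth muscle and leukocyte sums were higher. The fibroblast and feeder sums overlapped, with a median difference of 0.09 over the 12 markers. The part of these cell types in the Hox differences was not tested.

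Hox proteins bind DNA with partners of the TALE homeodomain class, the Pbx, Meis and Pknox proteins. Of 7 measured TALE genes 0 passed in either direction, and the median difference was 0.16. At an unadjusted limma p under 0.05, 1 was higher and 1 lower, beside 14.6% and 7.7% of all clusters. Meis1, a partner of posterior Hox proteins that is best known with Hoxa9 in leukaemia, was at 6.40 and 6.11 in the knockout and at 7.34 and 7.26 in the wild type (-1.05, interval from -1.56 to -0.54, limma adjusted p = 0.10). Meis2 was at 7.24 and 7.72 against 6.50 and 6.69 (0.88, interval from 0.23 to 1.54, limma adjusted p = 0.16). The groups were separate for both, in opposite directions. Pbx3 and Pbx4 differed by 0.22 and 0.16.

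A list of 8 measured genes known as targets or dependents of posterior Hox proteins in mouse limb, kidney or hindgut had 0 calls and a median of -0.57. At an unadjusted limma p under 0.05, 4 members were lower and 0 higher, beside 7.7% and 14.6% of all clusters. Shh, a secreted signal of the gut and urogenital epithelium and of the limb, was at 4.76 and 3.88 in the knockout and at 7.17 and 7.09 in the wild type (-2.81, limma adjusted p = 0.070). Bmp7, a signal of the kidney and limb, was at 4.22 ± 0.31 against 6.14 ± 0.16 (mean ± SD, n = 2; difference -1.92, limma adjusted p = 0.069). Epha7, an ephrin receptor bound by Hoxa13 and Hoxd13 in the limb, was at 4.89 and 4.61 against 6.34 and 6.47 (-1.65, limma adjusted p = 0.065), and Bmp2 was at 4.34 and 4.93 against 5.84 and 5.75 (-1.16, limma adjusted p = 0.13). None of these groups overlapped, and Shh, Bmp7 and Epha7 passed when clusters under the 25th percentile were left out (limma adjusted p between 0.040 and 0.044), with both group means of each above it. The kidney genes Six2, Gdnf and Itga8 were higher in the knockout without overlap, with differences between 0.29 and 0.31. Their values were below the guide of 5.08 on every array. At such low signal the arrays themselves differed: the lower quartile of all values was 4.06 on each knockout array and 3.80 and 3.82 in the wild type. The part of that offset in these 3 differences was not tested. Sostdc1 differed by 0.02 with overlap. Without overlap, 4 genes of the list were thus lower and 3 higher, beside 20.9% and 36.2% of all clusters. The median of -0.57 lay between the lower and the higher genes.

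Retinoic acid turns on Hox genes in the embryo, and among 10 measured genes of its synthesis, breakdown and reception 0 passed, with a median of 0.10. Aldh1a2, which makes retinoic acid, was at 4.73 and 4.73 in the knockout and at 8.30 and 7.13 in the wild type (-2.99, limma adjusted p = 0.082). Crabp2, which carries it to its receptors, was at 7.46 and 6.76 against 4.90 and 4.82 (2.25, limma adjusted p = 0.073). Cyp26a1, which breaks it down, was at 4.95 and 4.12 against 3.00 and 3.43 (1.32, limma adjusted p = 0.16), and Aldh1a1 differed by 0.63. Crabp2, with both group means above the 25th percentile, passed when clusters under it were left out (limma adjusted p = 0.047).

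**Figure D5:**
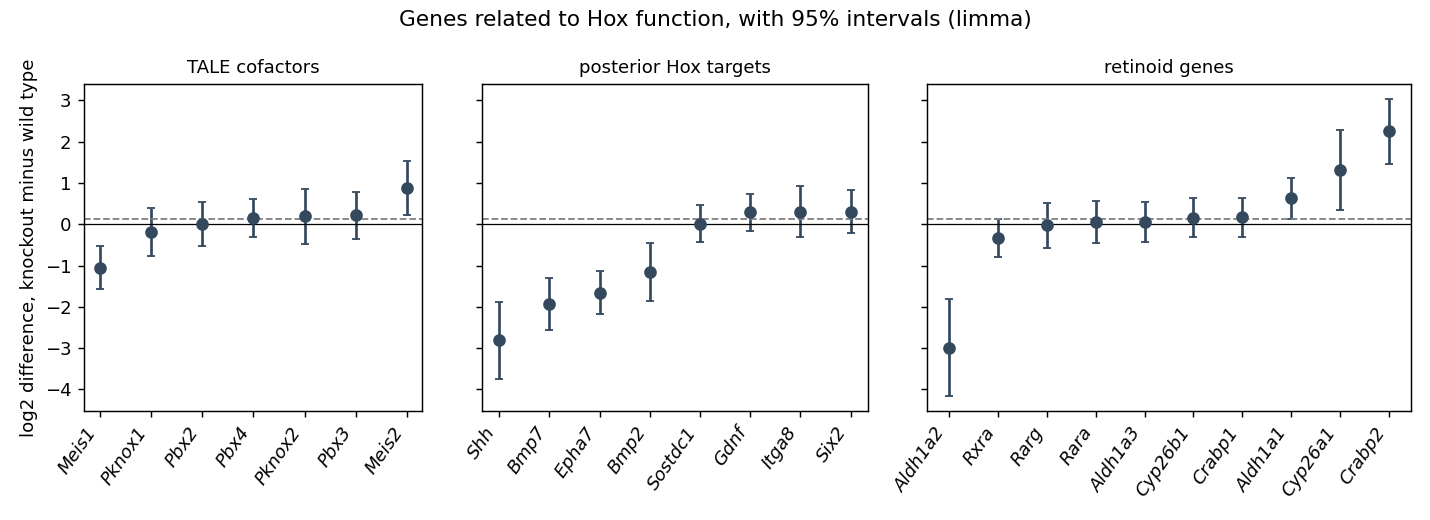
Log2 difference, knockout minus wild type (y axis), with 95% intervals from limma for TALE cofactors, posterior Hox targets and retinoid genes. Meis1 and Meis2 lie on opposite sides of 0, 4 of 8 target genes lie below 0 with their whole interval, and Aldh1a2 at -2.99 and Crabp2 at 2.25 are at the ends of the retinoid list.

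Polycomb proteins keep Hox clusters silent and trithorax proteins keep them active. Of 16 measured Polycomb genes 0 passed, and the median was 0.03. Bmi1, of the repressive complex PRC1, was at 7.92 and 7.71 in the knockout and at 6.64 and 7.11 in the wild type (0.94, limma adjusted p = 0.15). Ezh2, the H3K27 methyltransferase, was at 8.01 and 7.81 against 8.43 and 8.48 (-0.54, limma adjusted p = 0.19). Rnf2 differed by 0.56 and Phc2 by -0.34. Of 7 trithorax and demethylase genes 0 passed, with a median of -0.12. Psip1, a chromatin partner of MLL, differed by 0.62 and Kdm6a, an H3K27 demethylase, by 0.56, while Men1 and Ash2l differed by -0.34 and -0.21. Of 6 Cdx and ParaHox genes, which act upstream of or beside the Hox clusters, 0 passed, and the median was 0.13. Cdx2, a hindgut regulator, was at 5.03 and 5.12 against 5.31 and 5.26. Gsx2, Gsx1 and Pdx1 differed by 0.52, -0.28 and 0.18.

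Genes that flank the Hox clusters were read beside them. Of 15 measured flanking genes 0 passed, and the median was 0.12, the median of all clusters. Evx1, at the posterior end of HoxA beyond Hoxa13, was at 4.82 and 5.31 in the knockout and at 4.89 and 5.01 in the wild type, and Skap2, at the anterior end, at 6.69 and 6.78 against 6.64 and 6.74. Both overlapped, unlike Hoxa9, Hoxa10 and Hoxa11 between them. Evx2, beside Hoxd13, overlapped with a difference of -0.02. Those with the smallest p were Calcoco2 near HoxB (1.10, limma adjusted p = 0.16) and Lnpk near HoxD (0.53, limma adjusted p = 0.18). Nfe2 and Ttll6, both at low signal, differed by 0.60 and 0.45. Evx1, Skap2 and Evx2 were chosen for their position after their values were seen. Per RefSeq, 16 of the 32 Hox genes overlap another annotated gene, Hoxa11 its antisense transcript Hoxa11os among them and Hoxa10 the model Gm52902, whereas Hoxa9, Hoxb9, Hoxb13 and Hoxd13 overlap none. Whether signal was shared between such pairs was not tested.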

How the data were processed

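Total RNA of 4 cultures was hybridised to Affymetrix mouse exon arrays. The deposited table holds log2 intensities per transcript cluster, and the scale was read from the values. Affymetrix Expression Console, Partek and build mm9 are named per the submitters' processing notes; the summarisation and normalization are not stated in the labels. Gene symbols came from GEO's platform annotation, and all 32 Hox symbols matched a RefSeq table.

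R 4.3.3 and its package limma 3.58.1 compared the groups over all 23332 clusters, two-sided, through lmFit and eBayes with no covariate or filter, with Benjamini-Hochberg adjustment and a threshold of 0.05. The fit had 2 residual and 2.2 prior degrees of freedom and was tested on simulated data. Differences are knockout minus wild type, and the size of a difference as a power of 2 is its fold. Array medians were 5.08 to 5.13. The members and lists were chosen with earlier results of these data known. Of each list up to 4 genes were named in order of p, and of each marker list the 3 brightest. Of 9 noncoding RNAs of the clusters listed, 0 had a cluster.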

Additional observations from a re-analysis of the deposited data

How the results depend on the processing

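Hoxa9 and Hoxa11 kept their sign under all alternatives that measured them, Hoxa11 between -1.59 and -1.29 with adjusted p from 0.029 to 0.48 and Hoxa9 between -1.54 and -1.21 with adjusted p from 0.054 to 0.48. Of the 32 Hox genes 22 kept their sign throughout. No Hox gene passed except Hoxa11, the 1 call without clusters under the 25th percentile of mean level (29 Hox genes left) and the 1 call without clusters under the median (10 left, Hoxa9 not among them). Fewer clusters are tested there, and each Hox, target or retinoid gene called with the median filter had 1 group mean below its level of 5.09, so that the other group alone kept it and those calls are no support. All clusters gave 123 calls as reported, 362 and 524 with these filters, 303 with an intensity trend and 0 without any 1 array. Posterior target genes called were 3, 3 and 1 (Epha7) with the filters and the trend, and retinoid genes 1 and 2 with the filters. The replicate number as a block gave 0 calls and no Hox call; samples of one number share only that number, and their deviations correlated at 0.019. The median of all Hox genes was 0.10 after quantile and 0.11 after cyclic loess normalization and 0.064 with the median filter. HoxC medians were 0.19 and 0.17 after these normalizations and posterior medians 0.14 and 0.12; the central median was 0.10 after quantile normalization and 0.10 and 0.060 with the filters. With the median filter HoxD was at 0.20 (3 genes) and the posterior genes at -0.38 (3 genes). Without each array in turn, medians ran from 0.14 to 0.31 for all Hox genes, -0.63 to -0.39 for HoxA, -0.20 to 0.48 for HoxB, 0.25 to 0.44 for HoxC, 0.22 to 0.42 for HoxD, -0.0043 to 0.31 for anterior, -0.0066 to 0.25 for central and 0.24 to 0.36 for posterior genes; counts called ran from 0 to 0. Hoxb3 ran from -0.21 to 0.35 without each array in turn, reversed in the absence of the first knockout array (-0.21) or the second wild-type array (-0.09), and Hoxb6 ran from -0.30 to 0.90, reversed in the absence of the first knockout array. The cause of these shifts was not tested. Averaging several clusters of a gene changes nothing, since each Hox gene had 1. The number of arrays limits precision.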
